A study of Mus musculus with 12 samples.

Results

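The heat shock proteins and co-chaperones described here are the genes whose names begin with Hspa, Hspb, Hspd, Hspe, Hsph or Hsp90 followed by a number, or with Dnaja, Dnajb or Dnajc followed by a number, together with Bag1 to Bag6. The name rule found 92 of the 54658 gene names in the count table. Of these, 69 exceeded 1 CPM (counts scaled to the size of the library) in 6 or more of the 12 libraries and were tested, among 13541 genes tested in all. The other 23 lay below that level. They comprised 14 names of pseudogenes and 9 other names, the highest of which was Dnajc6 with 281 reads over the 12 libraries, and 7 of them had no read at all.

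The libraries are RNA from whole left atria (LA) of mice, 6 labelled control and 6 labelled iNICD. The controls carried the transactivator alone (amHC-rtTA, 4 females and 2 males) and the iNICD mice also carried the inducible Notch intracellular domain (amHC-rtTA;TetO-NICD, 3 females and 3 males). All were littermates on a mixed background, 2 to 3 months old, and all received doxycycline chow for 3 weeks with no washout, so that the transactivator and the drug were common to both groups. The αMHC promoter drives expression in cardiomyocytes, whereas the RNA came from every cell type of the chamber, and in such bulk tissue fewer cells of a type and less RNA per cell cannot be told apart.

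Chaperones bind unfolded proteins and help them to fold, refold or be degraded. The Hsp70 proteins (Hspa genes) hold clients in a cycle driven by ATP, J-domain proteins (Dnaj genes) deliver clients and start the cycle, and Bag proteins and Hsp110 (Hsph1) release the nucleotide that ends it. Small heat shock proteins (Hspb genes) hold damaged proteins without ATP and are abundant in striated muscle, where many of them sit at the sarcomere, and a core of the system is switched on by the transcription factor Hsf1 when proteins are damaged by heat or other stress.

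Sequence upstream of the start site was read from RefSeq for 56 of the 69 tested members, as the 250 bases before each start (GRCm38.p6). Hspb3 is shown because it was the member past the threshold, and Hspa1a and Hspa1b because they are the classical stress-inducible pair. Capitals mark a pair of inverted heat shock units (GAANNTTC or TTCNNGAA, searched on both strands).
Hspb3 upstream, chr13:113663677-113663926, minus strand: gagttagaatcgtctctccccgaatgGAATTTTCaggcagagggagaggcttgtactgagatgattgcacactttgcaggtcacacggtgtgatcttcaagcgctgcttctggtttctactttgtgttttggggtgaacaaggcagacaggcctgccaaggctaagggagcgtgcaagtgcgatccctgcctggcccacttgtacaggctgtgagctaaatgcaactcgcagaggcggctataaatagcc
Hspa1a upstream, chr17:34972157-34972406, minus strand: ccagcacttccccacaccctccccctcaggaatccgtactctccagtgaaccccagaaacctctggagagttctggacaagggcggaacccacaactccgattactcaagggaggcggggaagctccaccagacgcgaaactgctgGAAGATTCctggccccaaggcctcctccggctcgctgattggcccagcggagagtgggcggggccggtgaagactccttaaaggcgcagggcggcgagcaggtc
Hspa1b upstream, chr17:34959239-34959488, minus strand: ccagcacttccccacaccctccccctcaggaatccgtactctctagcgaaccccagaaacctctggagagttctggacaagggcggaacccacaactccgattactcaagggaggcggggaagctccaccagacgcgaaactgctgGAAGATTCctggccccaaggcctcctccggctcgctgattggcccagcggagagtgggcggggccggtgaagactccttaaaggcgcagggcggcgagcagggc
The Hspa1a and Hspa1b windows were identical at 247 of 250 positions (98.8%). The Hspb3 window also held a TATAAA run near its end, which 4 of the 56 members had (7.14%) against 14.3% of the 27025 genes in the RefSeq set.

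The next 4 windows carry longer patterns, in capitals. The Hspe1 window holds overlapping 3-unit heat shock patterns (GAANNTTCNNGAA or TTCNNGAANNTTC) and lies between the divergent starts of Hspe1 and Hspd1. The windows of Hspa5, Hsp90b1 and Dnajc3, which encode chaperones of the endoplasmic reticulum, hold the endoplasmic reticulum stress element (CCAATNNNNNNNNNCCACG on either strand).
Hspe1 upstream, chr1:55088053-55088082, plus strand: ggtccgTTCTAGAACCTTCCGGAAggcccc
Hspa5 upstream, chr2:34772020-34772048, plus strand: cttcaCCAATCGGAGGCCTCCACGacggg
Hsp90b1 upstream, chr10:86705518-86705671, minus strand: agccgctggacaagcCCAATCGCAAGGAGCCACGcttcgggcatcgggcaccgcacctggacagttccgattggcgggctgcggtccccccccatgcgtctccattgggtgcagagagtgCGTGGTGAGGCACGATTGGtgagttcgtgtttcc
Dnajc3 upstream, chr14:118937822-118937850, plus strand: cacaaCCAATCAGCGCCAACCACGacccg
The 3-unit heat shock pattern was present upstream of 3 members (Dnajb6, Hspd1 and Hspe1), or 5.36% of those with a window against 0.514% of all genes. The 2-unit pattern, which is part of the 3-unit one, was present in 14 (25%) against 14.5%. The stress element of the endoplasmic reticulum was present in 3 (5.36%) against 0.13%, and the RBPJ core GTGGGAA, the site of the DNA-binding partner of Notch, in Dnajc28 and Hspb1 (3.57%) against 6.18%. A match describes these letters only.

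The libraries held 21432632 to 27182038 reads on genes. Notch1, whose intracellular part the transgene encodes, stood at 108 to 131 CPM in the controls and at 2975 to 4077 in iNICD, so every label matched its transgene. The tissue label was matched by the cardiomyocyte markers, all 8 of which were tested and together made up 69555 to 84606 CPM in controls and 57223 to 68259 in iNICD, with 4 of them (Myl4, Myl7, Sln and Tnnt2) lower in iNICD past the threshold. No marker of endothelium, smooth muscle, fibroblasts, epicardium, leukocytes or adipocytes passed it, out of 29 tested.

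One library stood apart for the members. Control replicate 5 was the highest of the 6 controls for 42 of the 69 members and the lowest for 10, where it was the highest control for 32.6% and the lowest for 35.8% of all genes tested. Its member genes summed to 20528 CPM, against 10524 to 14301 in the other controls and 9935 to 13452 in iNICD. That library also differed over all genes tested. It was the highest of the 12 libraries for 3598 of the 13541 genes and the lowest for 3929. Its normalization factor was 0.863, against 0.973 to 1.06 in the other libraries. All genes tested summed to 1158679 CPM in it, against 973440 to 995395 in the other controls and 942948 to 1027225 in iNICD. Control replicate 4 was in turn the highest of all 12 libraries for 5 of the 12 heat shock response members and control replicate 5 for 6 of them. A list of 8 genes that are known to be induced within minutes to hours by handling or stress (Fos, Fosb, Jun, Junb, Egr1, Atf3, Mt1 and Mt2) summed to 1078 CPM in control replicate 4 and 1009 in control replicate 5, against 172 to 469 in the other controls and 124 to 308 in iNICD. Control replicate 4 was the highest of the 12 libraries for 4 of these 8 genes and control replicate 5 for 3, and Mt1 and Mt2 alone stood at 246 and 297 CPM in control replicate 5. Their part in the results was not tested.

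Whether Notch activation in cardiomyocytes moved the chaperone system of the left atrium was asked gene by gene, with the quasi-likelihood test of edgeR and p-values adjusted over all 13541 genes. Hspb3 was higher in iNICD, and no member was lower. At the same threshold 2.78% of all genes were higher and 1.34% lower in iNICD, 4.12% of them in all, so 1 of 69 members higher and 0 of 69 lower were no more than that background. At an unadjusted p under 0.05, 3 members were higher (Hspb3, Dnajc12 and Hspa8) and 4 lower (Dnajc25, Hsph1, Bag2 and Dnajb6), against 9.32% and 8.09% of all genes. DESeq2 called Hspb3 and Dnajc25, among 615 genes higher and 444 lower of all 13541. The exact test of edgeR called Hspb3 and no lower member, among 491 genes higher and 279 lower.

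The differences were small for most members. The 95% interval of the log2 fold change lay inside a 2-fold change either way for 59 of 69 members, where 88.8% of all genes had such an interval, and inside 1.5-fold for 52, where 68.4% of all genes did. The median log2 fold change of the members was -0.05 and 46 of 69 were below 0, against a median of -0.01 over all genes with 51.3% below 0. Without control replicate 5 the median of the members was 0.00 and 34 of 69 were below 0, so the shift of the members as a set rested on that library.

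**Figure D1:**
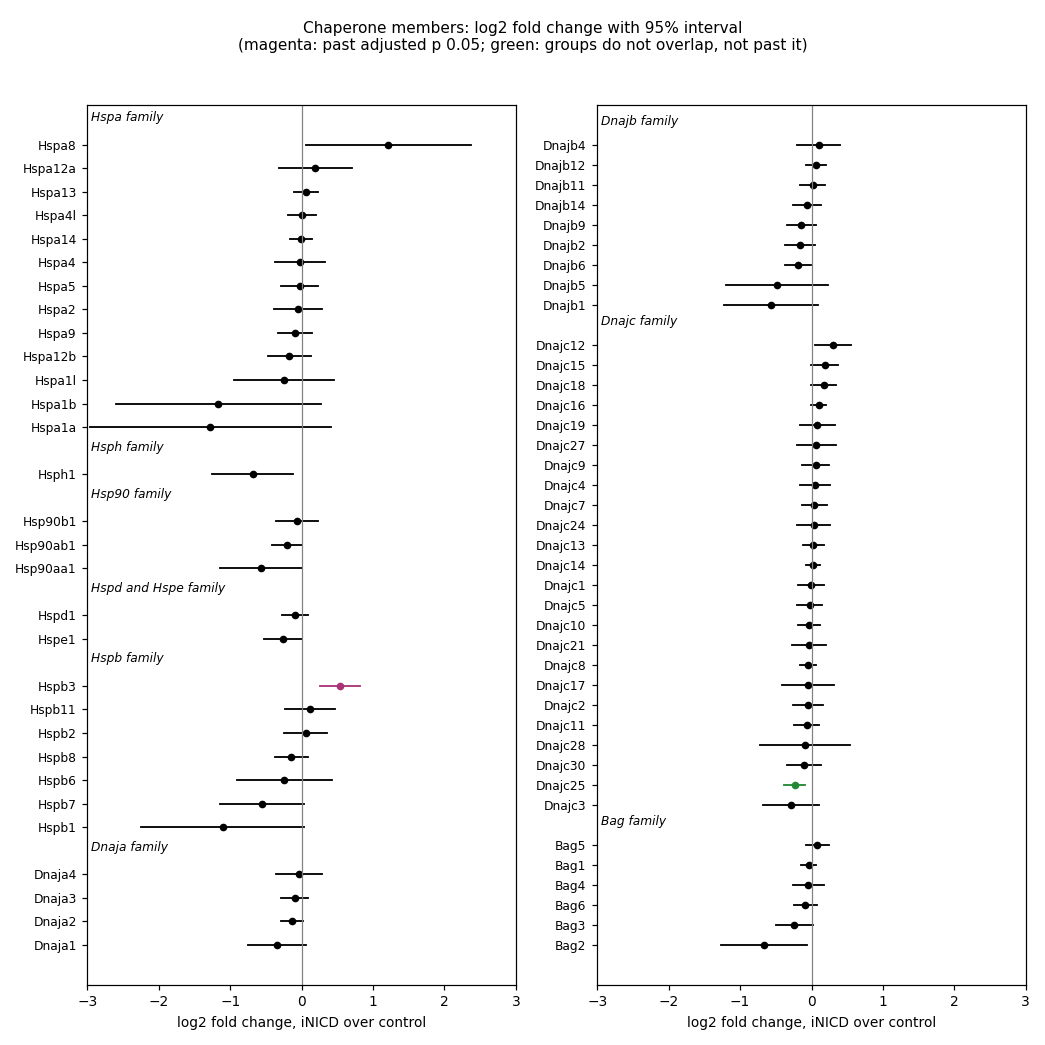
Log2 fold change (iNICD over control, x axis) of the 69 tested members by family, with points for the estimate and bars for the 95% interval of the edgeR fit. Hspb3 (magenta) is the member past an adjusted p of 0.05 and Dnajc25 (green) has groups that do not overlap without passing it; the widest intervals belong to Hspa1a, Hspa1b, Hspa8 and Hspb1.

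Among the Hspb genes, Hspb3 encodes a small heat shock protein of muscle that forms oligomers with Hspb2. The gene has 1 exon and lies at chr13:113662896-113663676 on the minus strand (GRCm38). Its level was lowest at 8.24 CPM, had a median of 12.9 and was highest at 14.8 in controls, and in iNICD it ran from 15.6 through a median of 18.2 to 21.7. Every iNICD library was above every control library. The means were 12.4 ± 2.28 CPM in controls and 18.1 ± 2.14 in iNICD (SD, n = 6 each), a log2 fold change of 0.54 (SE 0.13, edgeR adjusted p = 0.0329), or 1.46-fold. An exact two-sided permutation test over the 924 assignments of the libraries gave p = 0.00216, the smallest it can give.

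The call on Hspb3 was close to the threshold. Leaving out 1 library at a time kept the log2 fold change between 0.45 and 0.60, and the adjusted p ran from 0.0123 (without control replicate 5, which was the lowest library for this gene) to 0.0811, with 5 of 12 fits past the threshold. The call was lost without control replicates 1 (adjusted p = 0.0753), 4 (0.0536) or 6 (0.0560) and without iNICD replicates 1 (0.0695), 4 (0.0811), 5 (0.0609) or 6 (0.0640). In females alone the log2 fold change was 0.31 (adjusted p = 0.167) and in males alone 0.90 (adjusted p = 0.577). The difference between the sexes was 0.60 on the log2 scale (SE 0.22, interaction term of edgeR, unadjusted p = 0.0219, adjusted p = 0.916). After adjustment none of the 69 members passed that test, nor did any of all 13541 genes. Hspb3 was the 1 member with an unadjusted p under 0.05 in it, where 501 of all 13541 genes were. The males held 2 controls, 1 of them control replicate 5, so the test could not settle whether the sexes differ. While Hspb3 was higher, 4 of 8 cardiomyocyte markers were lower in the same libraries.

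**Figure D2:**
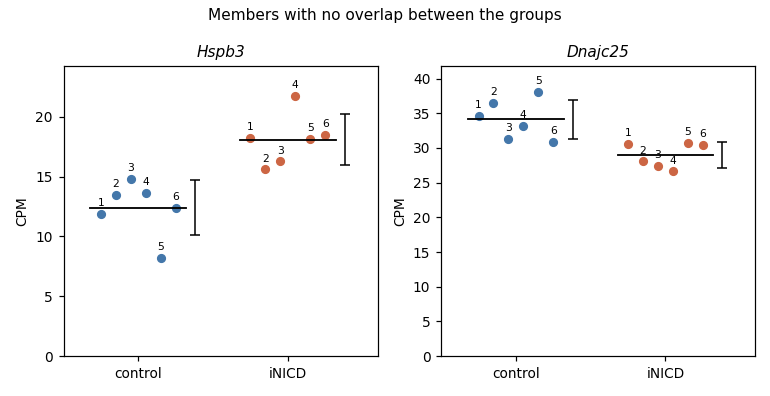
Normalised CPM (y axis, from 0) of Hspb3 and Dnajc25 in each library, with the replicate number above each point, the group mean as a line and its SD as a bar. All 6 iNICD points lie above the controls for Hspb3 and below them for Dnajc25.

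The other muscle members of the family were much more abundant and did not pass the test. Hspb7, a cardiac small heat shock protein that guards the actin filaments of the sarcomere, was the most abundant of all members, at 1732 CPM per kilobase of gene length in controls and 1179 in iNICD. It took between 21.6% and 42.7% of all member CPM in a library. In controls Hspb7 ran from 2577 through a median of 4004 to 8772 CPM and in iNICD from 2142 through 3175 to 4451. The groups overlapped, and control replicate 5 held the highest value. The log2 fold change of Hspb7 was -0.55 (SE 0.27, edgeR adjusted p = 0.312), and -0.29 (SE 0.21, adjusted p = 0.508) without control replicate 5.

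Hspb1 encodes Hsp27, which binds actin and is induced by heat. Its control values were 40.2 at the lowest, 73.5 at the median and 380 at the highest, and its iNICD values 30.1, 52.0 and 119 CPM. The log2 fold change of Hspb1 was -1.11 (SE 0.53, edgeR adjusted p = 0.301) and -0.41 (SE 0.38, adjusted p = 0.629) without control replicate 5. That library and iNICD replicate 5 were each the highest of their group. A processed pseudogene, Hsp25-ps1 on chromosome 13, shares 48.8% of the 50-base stretches of Hspb1 transcripts, and it held 22.1 CPM in iNICD replicate 3 and at most 1.404 in any other library.

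Hspb6, Hspb8 and Hspb2 had log2 fold changes of -0.24, -0.14 and 0.06, with 95% intervals from -0.90 to 0.42, from -0.37 to 0.08 and from -0.24 to 0.35. Hspb6 stood at 817 CPM in control replicate 5 and at 201 to 512 in the other 11 libraries. Without control replicate 5 its log2 fold change turned to 0.07 (adjusted p = 0.910), and those of Hspb8 and Hspb2 were -0.04 and 0.15. Of the 4 smooth muscle markers, Myh11, Tagln and Cnn1 were highest among the controls in that library and Acta2 was not, and their sum ranged from 65.2 to 393 CPM in controls, with that library at the top, and from 68.6 to 237 in iNICD. Without it the log2 fold change of Tagln went from -0.67 to -0.15 and that of Cnn1 from -0.66 to 0.28. The part of these markers in the small heat shock protein values was not tested. Cryab, the crystallin small heat shock protein of muscle, which the name rule does not take in, had the same library at the top, at 3522 CPM, where the other controls had 1360 to 2232 and 1121 to 2069 in iNICD (log2 fold change -0.52, SE 0.25, adjusted p = 0.301). Without that library it was -0.26 (SE 0.18, adjusted p = 0.483).

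**Figure D3:**
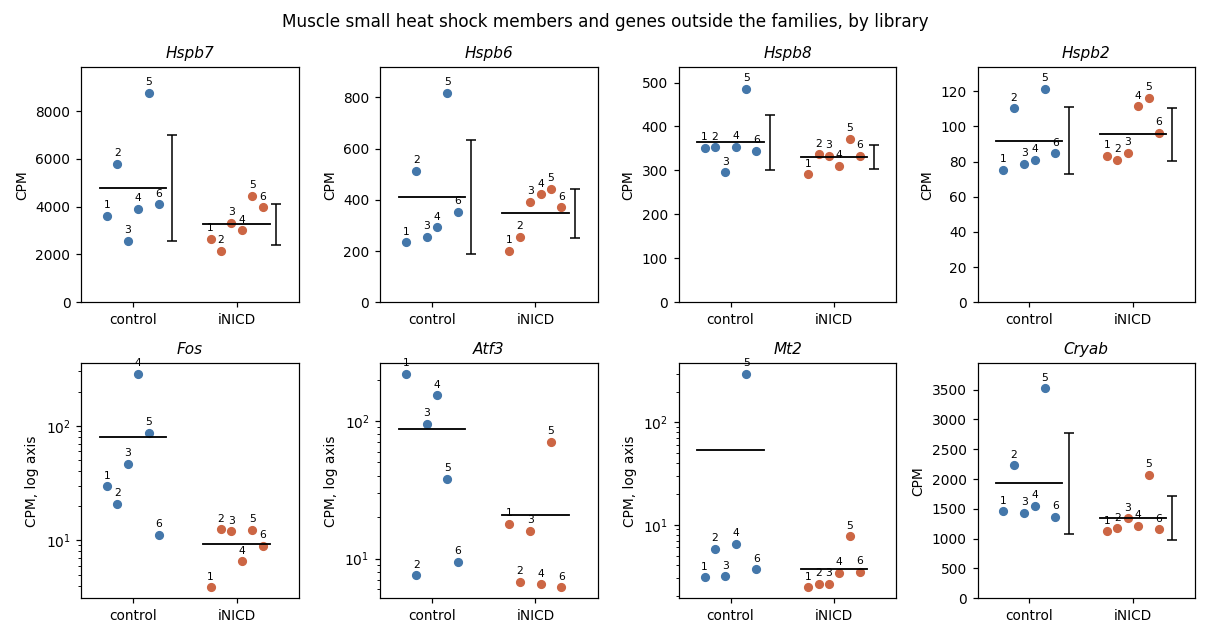
Normalised CPM by library of 4 muscle small heat shock members (top) and of Fos, Atf3, Mt2 (log axes) and Cryab (bottom), with replicate numbers above the points and lines for group means; SD bars are drawn on the linear axes only. Control replicate 5 is the highest library in every top panel and for Mt2 and Cryab, and control replicate 4 the highest for Fos.

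The Hspa genes encode the Hsp70 chaperones. Of 13 tested, none was called and 1 was higher at an unadjusted p under 0.05 (Hspa8), where 9.32% of all genes were. A log2 fold change below 0 was found for 9 of the 13, or 4 without control replicate 5, against 51.3% of all genes. Hspa5, the Hsp70 of the endoplasmic reticulum, had the highest level per length among them, 188 CPM per kilobase in controls and 184 in iNICD. Hspa5 ran from 588 through a median of 780 to 988 CPM in controls and from 629 through 809 to 894 in iNICD. The groups overlapped over nearly their whole range. Hspa5 had a log2 fold change of -0.03 with a 95% interval from -0.29 to 0.23 (adjusted p = 0.931).

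Hspa9, the Hsp70 of mitochondria, was second at 178 CPM per kilobase in controls and 167 in iNICD. Hspa9 had a log2 fold change of -0.09 with an interval from -0.33 to 0.15, and of 0.02 without control replicate 5, which held 751 CPM against 471 to 522 in the other controls. The order of Hspa5 and Hspa9 by length-scaled level in controls was within the spread between libraries, whose SD was 133 CPM for Hspa5 and 104 for Hspa9.

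Hspa1a and Hspa1b, the stress-inducible Hsp70 pair, stand in tandem on chromosome 17 (chr17:34969190-34972156 and chr17:34956436-34959238, minus strand, 1 exon each). Hspa1a ran from 1.70 through 5.52 to 27.2 CPM in controls and from 0.853 through 1.28 to 9.40 in iNICD. Hspa1b ran from 2.85 through 5.32 to 25.6 in controls and from 0.795 through 2.51 to 9.11 in iNICD. Control replicate 4 was the highest library for both genes, and iNICD replicates 3 and 5 stood above the other iNICD libraries for both.

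The log2 fold changes were -1.28 for Hspa1a (SE 0.78, edgeR adjusted p = 0.426) and -1.17 for Hspa1b (SE 0.66, adjusted p = 0.394). Without control replicate 4 they were -0.49 (adjusted p = 0.777) and -0.45 (adjusted p = 0.746). Hspa1a shares 58.8% of its 50-base stretches with Hspa1b, and Hspa1b 62.3% with Hspa1a, so the split of reads between them is uncertain. The sum of the pair had a log2 fold change of -1.22 (SE 0.71, adjusted p = 0.400). The 95% intervals were wide, from -2.96 to 0.41 for Hspa1a and from -2.60 to 0.27 for Hspa1b.

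Hspa8, the constitutive Hsp70 of the cytosol, had the largest positive log2 fold change of the 69 members, 1.22 (SE 0.53, edgeR adjusted p = 0.262). In controls it ran from 13.5 through 20.3 to 24.9 CPM. In iNICD it stood at 101 CPM in replicate 2 and 109 in replicate 5, and at 14.5 to 19.7 in the other 4 libraries. Those 4 libraries lay inside the range of the controls.

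The gene (chr9:40800984-40810087, plus strand) has near-identical copies. Gm15459, a processed pseudogene at chr5:5781615-5783555, shares 34.6% of the 50-base stretches of Hspa8 transcripts. Gm15459 held more reads than Hspa8 in every library but those of iNICD replicates 2 and 5, with 64.7 to 117 CPM in controls, 43.6 and 46.7 in iNICD replicates 2 and 5 and 80.1 to 98.5 in the other iNICD libraries. The pseudogene was thus low in the same 2 libraries in which Hspa8 was high.

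With Hspa8 and 6 such copies summed (1 of them a lincRNA that overlaps Gm15459), the level was 79.2 to 143 CPM in controls and 98.3 to 157 in iNICD. The log2 fold change of the sum was 0.00 (SE 0.16, adjusted p = 0.994, exact permutation p = 0.981), against 1.22 for Hspa8 alone. With iNICD replicates 2 and 5 left out, the log2 fold change of Hspa8 alone was -0.23 (SE 0.17, adjusted p = 0.587). The level printed for Hspa8, 4.64 CPM per kilobase in controls, therefore counts only the reads assigned to that gene name. These alternatives were chosen after the values had been seen.

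**Figure D4:**
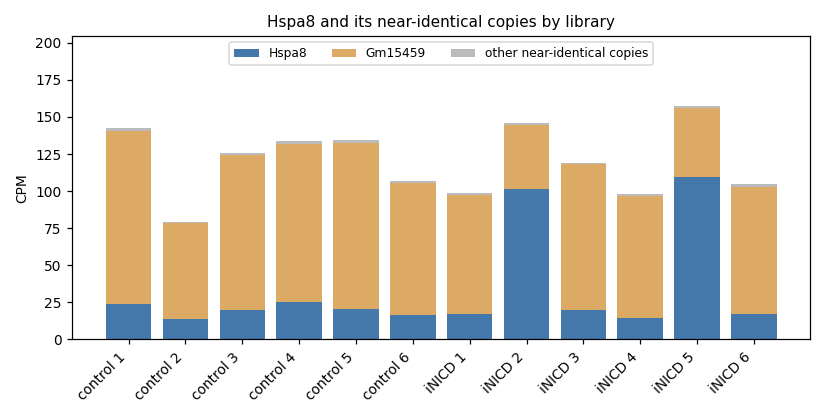
CPM (y axis, from 0) assigned to Hspa8, to the processed pseudogene Gm15459 and to 5 other near-identical copies in each of the 12 libraries, as stacked bars. Hspa8 makes up most of the bar in iNICD replicates 2 and 5 and a minor share in the other 10, while the summed height runs from 79.2 to 157 CPM.

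Hsph1 encodes Hsp110, a nucleotide exchange factor for Hsp70 that is induced by heat. It ran from 85.8 through a median of 110 to 201 CPM in controls and from 45.3 through 81.7 to 111 in iNICD. Control replicate 5 was the highest library, and iNICD replicates 1, 2, 4 and 6 lay below every control. The log2 fold change of Hsph1 was -0.68 (SE 0.26, edgeR adjusted p = 0.190) with an interval from -1.25 to -0.12. Without control replicate 5 it was -0.49 (SE 0.24, adjusted p = 0.285).

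All 3 Hsp90 genes had log2 fold changes below 0, against 51.3% of all genes. Without control replicate 5, 2 of them did, and Hsp90b1 went from -0.07 to 0.07. None had an unadjusted p under 0.05, where 9.32% of all genes were higher and 8.09% lower. Hsp90aa1 (edgeR unadjusted p = 0.0501) and Hsp90ab1 (0.0512) lay just above that level. Hsp90ab1, the constitutive cytosolic form, was the most abundant at 533 CPM per kilobase in controls and 461 in iNICD. It ran from 1437 through 1542 to 1975 CPM in controls and from 1201 through 1383 to 1551 in iNICD, with a log2 fold change of -0.21 (SE 0.10, adjusted p = 0.289), or -0.14 without control replicate 5. Hsp90aa1, the inducible cytosolic form, ran from 43.7 through 65.0 to 148 CPM in controls and from 32.9 through 55.4 to 60.1 in iNICD. Its log2 fold change was -0.57 (SE 0.26, adjusted p = 0.287), and -0.26 (SE 0.17, adjusted p = 0.466) without control replicate 5, which held the highest value. Hsp90aa1 shares 41.8% of its 50-base stretches with the pseudogene Gm12346, and its log2 fold change with such copies summed was also -0.57.

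The mitochondrial chaperonin is a barrel of Hspd1 closed by a lid of Hspe1, and both genes share 1 promoter region. Hspd1 ran from 129 through 149 to 187 CPM in controls and from 127 through 144 to 151 in iNICD (log2 fold change -0.09, SE 0.08, adjusted p = 0.586), with -0.03 without control replicate 5. Hspe1 ran from 14.5 through 16.0 to 21.9 in controls and from 11.5 through 14.7 to 16.3 in iNICD (log2 fold change -0.27, SE 0.12, adjusted p = 0.291). The groups overlapped for both. Of the 8 members that work in mitochondria (Hspa9, Hspd1, Hspe1, Dnaja3, Dnajc11, Dnajc15, Dnajc19 and Dnajc30), none was called in either direction (4.12% of all genes were) and none had an unadjusted p under 0.05 (9.32% higher and 8.09% lower among all genes). All 8 intervals lay inside a 1.5-fold change, as did 68.4% of those of all genes.

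The J-domain genes were 37 of the 69 tested members. None of the 4 Dnaja, 9 Dnajb and 24 Dnajc genes was called by edgeR, where 4.12% of all genes were. Dnajc25, a membrane J-domain protein, was the member other than Hspb3 whose groups did not overlap, where 2.58% of all genes had groups that did not overlap with iNICD higher and 1.25% with iNICD lower, 3.83% in all. Its gene lies at chr4:58995062-59025573 on the plus strand. It ran from 30.9 through 33.9 to 38.1 CPM in controls and from 26.7 through 29.3 to 30.8 in iNICD. The gap between the groups was narrow.

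The log2 fold change of Dnajc25 was -0.23 (SE 0.07, edgeR adjusted p = 0.0807, exact permutation p = 0.00216), or 0.85-fold, with an interval from -0.38 to -0.09. DESeq2 gave an adjusted p of 0.0218. Over the 12 fits that each left out 1 library the log2 fold change was -0.26 to -0.20 and the adjusted p 0.0602 to 0.178, so no such fit passed the threshold.

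Dnajb1, the main Hsp40 of the heat shock response, and Dnaja1, a partner of cytosolic Hsp70, were high in the same control as Hspa1a. Dnajb1 ran from 37.3 through 48.0 to 99.1 CPM in controls and from 23.1 through 33.5 to 56.4 in iNICD (log2 fold change -0.57, SE 0.30, adjusted p = 0.358). Without control replicate 4, the highest library, it was -0.33 (adjusted p = 0.591). Dnaja1 ran from 26.9 through 36.5 to 48.6 in controls and from 20.8 through 28.3 to 40.1 in iNICD (log2 fold change -0.34, SE 0.19, adjusted p = 0.376). Control replicate 4 was again the highest of the 12 libraries and iNICD replicate 4 the lowest for both genes.

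Within each J-domain family the gene most abundant per length in controls did not pass the test. Dnaja2, which helps cytosolic Hsp70 to refold clients, stood at 86.5 CPM per kilobase in controls and 78.7 in iNICD (log2 fold change -0.14, SE 0.07, adjusted p = 0.368). Dnajb2, enriched in neurons and muscle, stood at 30.6 and 27.5 (log2 fold change -0.16, SE 0.10, adjusted p = 0.431). Dnajc3, a J-domain protein of the endoplasmic reticulum, stood at 28.5 and 23.3 (log2 fold change -0.29, SE 0.18, adjusted p = 0.441), and in iNICD Dnajc10 was above it at 25.4. In controls Dnajc10 was next at 26.0. Control replicate 5 held 221 CPM of Dnajc3, against 103 to 161 in the other controls. Without control replicate 5 the log2 fold changes of Dnaja2, Dnajb2 and Dnajc3 were -0.07, -0.08 and -0.13. Over the 24 Dnajc genes the median log2 fold change was 0.01 and 12 were below 0, and all 24 intervals lay inside a 2-fold change.

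The Bag genes encode exchange factors of Hsp70. Bag3, which with Hspb8 clears damaged filament proteins in the heart, stood at 106 CPM per kilobase in controls, where it was the most abundant of the family per length, and at 89.5 in iNICD, where Bag1 stood at 90.9. It ran from 196 through 277 to 313 CPM in controls and from 183 through 230 to 266 in iNICD, and the groups overlapped. Bag3 had a log2 fold change of -0.24 (SE 0.12, edgeR adjusted p = 0.331). Hspb8 had -0.14 (SE 0.10, adjusted p = 0.513). Bag2 is named because of 1 library: it held 157 CPM in control replicate 5 and 38.7 to 72.9 in the other 11, with a log2 fold change of -0.67 (SE 0.28, adjusted p = 0.232) and of -0.27 (SE 0.12, adjusted p = 0.243) without that library.

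The 12 members of the heat shock response list were read together. These are the genes that Hsf1 is known to induce (Hspa1a, Hspa1b, Hspa8, Hsph1, Hsp90aa1, Hsp90ab1, Hspb1, Hspd1, Hspe1, Dnajb1, Dnaja1 and Bag3). None was called in either direction by edgeR or DESeq2. At an unadjusted p under 0.05, 1 was higher (Hspa8) and 1 lower (Hsph1), against 9.32% and 8.09% of all genes. For 11 of 12 the log2 fold change was below 0, against 51.3% of all genes, with a median of -0.45 against -0.01. The median was -0.32 without control replicate 5 and -0.32 without control replicate 4, with 11 of 12 below 0 each time. The intervals were wide for this list, with 7 of 12 reaching outside a 2-fold change, so a change beyond 2-fold was inside the interval for those 7.

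By summed CPM the same 2 controls were highest for these 12 genes and for the 8 handling genes. The 12 members summed to 2190 to 3287 CPM in controls and 1785 to 2371 in iNICD. Control replicate 5 was at the top, and control replicate 4 (2579) was close to control replicate 1 (2521). Hsp90ab1 alone held 1437 to 1975 CPM of these sums in controls. Gene by gene this differed, since Atf3 was highest in control replicate 1 (220 CPM) and stood at 38.1 in control replicate 5. Among the handling genes, Fos stood at 285 CPM in control replicate 4, at 11.2 to 87.0 in the other controls and at 3.86 to 12.5 in iNICD, and was lower in iNICD (log2 fold change -3.10, SE 0.71, edgeR adjusted p = 0.0283; adjusted p = 0.0387 without control replicate 4). All 8 handling genes had log2 fold changes below 0 (51.3% of all genes did), with a median of -1.83. Of the 8, 1 passed the threshold, where 1.34% of all genes were lower. Without control replicate 5 all 8 stayed below 0, with a median of -1.21. In that fit Mt2 went from -3.84 to -0.26 and Mt1 from -1.22 to -0.39, while Atf3 went from -2.09 to -2.25 and Jun from -0.69 to -0.79. The part of handling in the values of the 12 members was not tested.

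**Figure D5:**
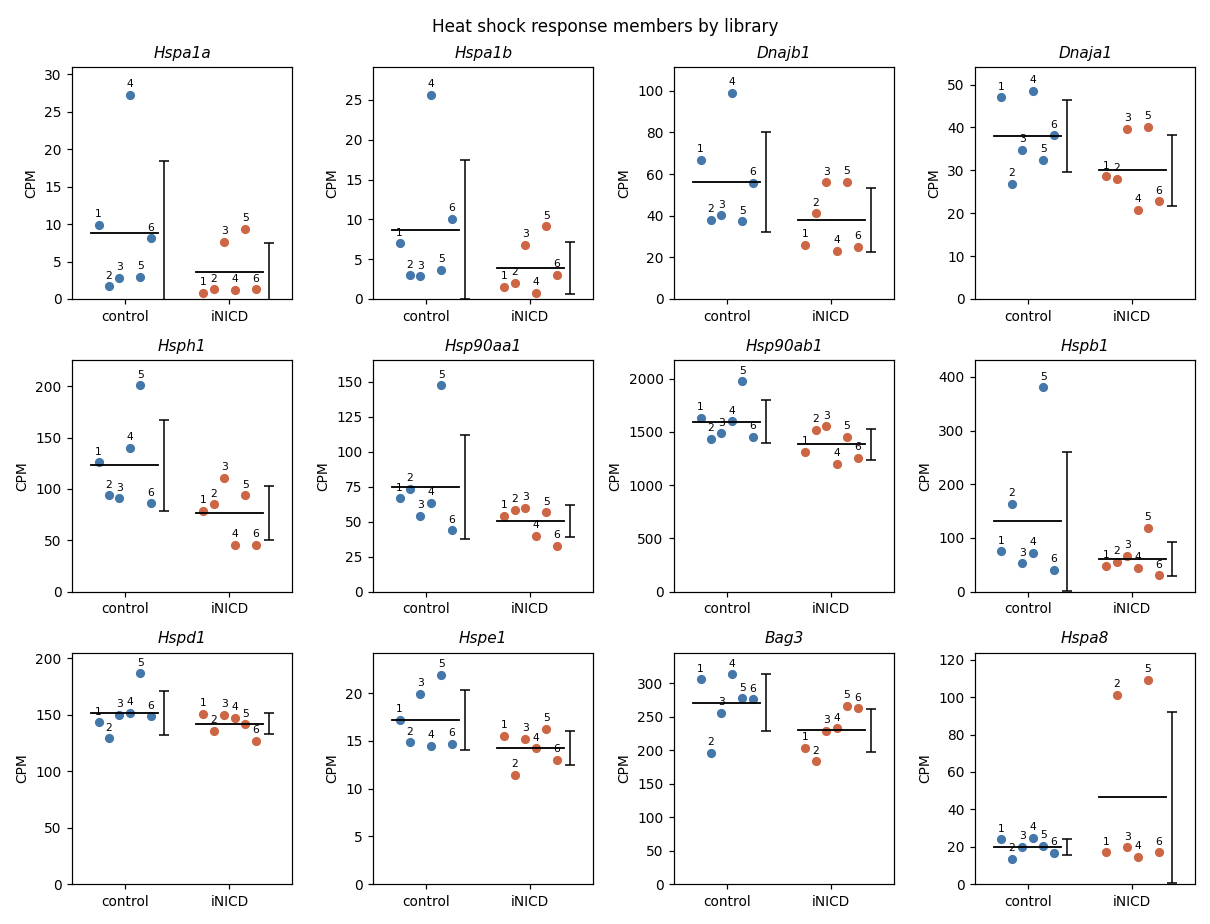
Normalised CPM (y axes, from 0) of the 12 heat shock response members in each library, with replicate numbers above the points, lines for group means and bars for the SD, cut at 0. Control replicate 4 is the highest library for Hspa1a, Hspa1b, Dnajb1, Dnaja1 and Bag3, control replicate 5 for 6 genes, and iNICD replicate 5 for Hspa8.

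The 10 members of the endoplasmic reticulum (Hspa5, Hsp90b1, Hspa13, Dnajb9, Dnajb11, Dnajb12, Dnajb14, Dnajc1, Dnajc3 and Dnajc10) showed no called change, where 4.12% of all genes did, and none with an unadjusted p under 0.05. Their log2 fold changes lay between -0.29 and 0.06, all 10 intervals lay inside a 2-fold change (88.8% over all genes), and 7 were below 0 (51.3% over all genes), or 3 without control replicate 5. The 3 of them with the stress element upstream, Hspa5, Hsp90b1 and Dnajc3, had log2 fold changes of -0.03, -0.07 and -0.29 (adjusted p = 0.931, 0.834 and 0.441), and of 0.04, 0.07 and -0.13 without control replicate 5.

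Genes of the chaperone system outside the name rule were read from a list of 57, all of which were tested. It holds the heat shock factors, Cryab, co-chaperones of Hsp90 and Hsp70, the TRiC chaperonin and prefoldin, and folding enzymes of the endoplasmic reticulum and mitochondria. None was called higher or lower by edgeR. At an unadjusted p under 0.05, 0 were higher and 8 lower, against 9.32% and 8.09% of all genes, and 46 of 57 had a log2 fold change below 0 (median -0.13), against 51.3% of all genes (median -0.01). Without control replicate 5, 45 of 57 were below 0 (median -0.06). The exact test of edgeR called none of them, and DESeq2 called 3 lower (Cct4, Fkbp4 and Hsf1) and none higher, where it called 444 of all 13541 genes lower.

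Hsf1, the factor that switches on the heat shock response, ran from 37.8 through 45.1 to 56.1 CPM in controls and from 34.2 through 37.7 to 40.2 in iNICD (log2 fold change -0.29, SE 0.09, edgeR adjusted p = 0.0893). Hsf2 and Hsf4 had log2 fold changes of -0.02 and -0.27 (adjusted p = 0.909 and 0.431). Cct4, a subunit of the TRiC ring that folds actin and tubulin, was the 1 gene of these 57 whose groups did not overlap. Over all genes 3.83% did not overlap, 1.25% with iNICD lower. Cct4 held 153 to 240 CPM in controls and 131 to 149 in iNICD (log2 fold change -0.32, SE 0.10, adjusted p = 0.105). Without control replicate 5, its highest library, Cct4 was lower past the threshold (log2 fold change -0.21, SE 0.05, adjusted p = 0.0305). In that fit 304 of all 13541 genes were lower. Fkbp4, an immunophilin that rides with Hsp90 on steroid receptors, had -0.26 (SE 0.08, adjusted p = 0.118).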

How the data were processed

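RNA from whole left atria of 12 mice (6 control, 6 iNICD) had been depleted of ribosomal RNA and sequenced from stranded libraries as single-end 50-base reads. The authors deposited counts that they had not normalized, 1 per gene name and library, in 1 table that also holds a length in bases for each name, a unit of its own (other), used here only for CPM per kilobase. Their processing notes name cutadapt, STAR 2.4.2a, Subread featureCounts, edgeR and mm10. For a STAR and featureCounts route the methods state that reads with a unique alignment to 1 gene were counted. They describe a second route as well, with other tools that the processing notes do not name. The table itself does not state its route. Under unique counting, a read that fits near-identical copies equally well is dropped, and a read that differs by a base goes to 1 of them.

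Groups, replicate numbers and sex came from the sample labels. Genes above 1 CPM in 6 or more libraries (13541) were TMM-normalized, and edgeR 4.0.16 (R 4.3.3) compared the groups with its quasi-likelihood test (two-sided, Benjamini-Hochberg over all genes, threshold 0.05). CPM are scaled to TMM-adjusted totals. SE and 95% intervals were derived from the F statistic. An exact permutation test was added for single genes. Members named with values were those past the threshold, those without overlap between groups, the most abundant per length of each family in controls, and the heat shock response list. Any other gene was named after its values had been seen. The members and lists were chosen with earlier results of these data known.

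Shared 50-base stretches were counted over GENCODE M21 transcripts (GRCm38). Promoters came from a RefSeq table. The 12 libraries held 21432632 to 27182038 counts, and no library repeated another of its group (lowest chi-square per gene 16.7 over 30 pairs). The fits were tested on simulated data. Alternatives were DESeq2 1.42.0, the exact test of edgeR, RLE and upper-quartile normalization, no filter and filterByExpr, sex as a covariate, a replicate block, 1 sex alone, removal of mitochondrial genes and each library left out. Added after seeing the data were the summing of near-identical copies, the fit without iNICD replicates 2 and 5, and the interaction with sex. Right atrial libraries were not analysed here.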

Additional observations from a re-analysis of the deposited data

Results flagged for a closer look

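Within each group of 6 libraries a value was picked out when its gap to the nearest other value exceeded the 95% critical share of the group's range (Dixon's test). Of the 138 groups (69 members in 2 conditions), 22 had such a value, where chance alone picks out about 1 in 20 groups, or 6.9 of them, and the members share libraries and are not independent. Control replicate 5 was the highest control in 16 of the 22. Bag2 stood at 157 CPM in it, against 46.2 to 72.9 in the other 5 controls. Hsp90aa1 stood at 148 CPM in it, against 43.7 to 73.5 in the other 5 controls. Hspa9 stood at 751 CPM in it, against 471 to 522 in the other 5 controls. Hspb1 stood at 380 CPM in it, against 40.2 to 163 in the other 5 controls. The other 12 members with that library highest, by their CPM in it and the highest value of the other controls, were Dnaja2 (317 against 255), Dnaja3 (148 against 120), Dnaja4 (384 against 251), Dnajc1 (50.9 against 40), Dnajc27 (45.6 against 31.8), Dnajc5 (171 against 136), Hsp90ab1 (1975 against 1632), Hsp90b1 (756 against 513), Hspa12b (38.6 against 26.6), Hspa1l (29.9 against 16.1), Hspa4 (507 against 350) and Hspb8 (485 against 353).

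Hspa1a was highest in control replicate 4, at 27.2 CPM against 1.7 to 9.89 in the other 5 libraries of its group. Hspa1b was highest in control replicate 4, at 25.6 CPM against 2.85 to 10.1 in the other 5 libraries of its group. Dnajc16 was lowest in iNICD replicate 1, at 59.2 CPM against 64.4 to 67.3 in the other 5 libraries of its group. Dnajc1 was lowest in iNICD replicate 2, at 35.5 CPM against 40.9 to 42.5 in the other 5 libraries of its group. Dnajc2 was lowest in iNICD replicate 6, at 17 CPM against 21.5 to 22.2 in the other 5 libraries of its group. Dnajc21 was lowest in iNICD replicate 6, at 28.5 CPM against 36.1 to 39.3 in the other 5 libraries of its group.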

How the results depend on the processing

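The 19 named members kept the direction of their log2 fold change and their side of the threshold in 258 of 266 values from other settings and in 218 of 228 values from fits without 1 library. The call on Hspb3 was lost in 5 of the 266 and 7 of the 228. Those 5 settings were the replicate block by title number (0.56, adjusted p = 0.0668), the replicate block by description number (0.55, adjusted p = 0.122), females only (0.31, adjusted p = 0.167), males only (0.90, adjusted p = 0.577) and the fit without iNICD replicates 2 and 5 together (0.59, adjusted p = 0.0760). In all 5 of these settings the count of members higher was 0, as against 1, and it ran from 0 to 1 without single libraries. The count of members lower was 1 with DESeq2 (Dnajc25, -0.24, adjusted p = 0.0218) and 0 in every other setting, single libraries left out included. The count of other chaperone genes lower was 3 with DESeq2, 1 with sex as a covariate (Fkbp5), 1 with the replicate block by title number (Fkbp5), and 0 to 1 without single libraries: Fkbp4 without control replicate 2, Cct4 without control replicate 5 and Hsf1 without control replicate 6. No other chaperone gene was higher in any setting. The direction reversed for Hspa5, between -0.10 and 0.04 without single libraries (0.0444 without control replicate 5, 0.0009 without iNICD replicate 2 and 0.03 without iNICD replicate 6), for Hspd1 in females only (0.0199) and for Hspa8 without iNICD replicates 2 and 5 (-0.23). The cause was not tested, and the fits that leave libraries out also hold fewer of them. Same-numbered libraries had deviations from their group means that correlated at 0.127 on average (-0.148 to 0.408, 4 of 6 pairs over 0.1), so the numbers were not taken to pair the mice. Over all genes the calls under the block were 332 higher and 136 lower by title number and 285 and 136 by description number, against 377 and 181, and 2 of 6 libraries correlated best with their own number. DESeq2 called 615 higher and 444 lower. The standard error of the log2 fold change was 0.78 for Hspa1a, and 0.17 for Dnajc17, whose mean CPM was lower in both groups.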

Other observations

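Around Hspa8 on chromosome 9, other genes also had iNICD replicates 2 and 5 outside the range of the remaining 10 libraries. This was looked for after the values of Hspa8 had been seen and is a description. Of 6 tested genes that start within 1 Mb of Hspa8, 1 had both libraries outside the range (16.7%). Of 73 within 5 Mb, 4 did (5.48%), and of 136 within 10 Mb, 8 did (5.88%), against 1.3% of 13510 tested genes with a position. Gramd1b, at chr9:40293233-40531383, stood at 38.3 and 28.5 CPM in iNICD replicates 2 and 5 and at 7.35 to 19.0 in the others. Nxpe4 stood at 9.35 and 6.10 CPM against 0.562 to 1.44. Tirap was lower in both, at 19.4 and 17.6 CPM against 22.4 to 28.6, and Scn2b, a sodium channel subunit, stood at 0.265 and 0.669 CPM against 0.812 to 2.01.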
